A study of Mus musculus with 3 samples.

Results

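The regions described here are distal MEIS2 peaks that were strong in each MEIS2 library and at whose position no peak was called without the primary antibody. A peak belongs to the set when it lies on chromosomes 1 to 19, has a fold enrichment of at least 12 in MEIS2 replicate 1, shares at least 1 bp with a replicate 2 peak that also reaches 12, shares none with a no-antibody peak, and has its summit more than 1 kb from both ends of every annotated gene. Of 73347 autosomal peaks of replicate 1, 3177 met all of these conditions (4.33%), and the 3 libraries together list 170729 peaks. Each of the 3177 has its own replicate 2 peak, and 2 of them overlap more than 1. They are called strong distal peaks below for their fold enrichment. Taller MEIS2 peaks exist, both among those that overlap a no-antibody peak and among the weaker distal peaks defined next. The other distal replicate 1 peaks that overlap a replicate 2 peak and no no-antibody peak, 28348 in number, are called weaker distal peaks, so the strong ones are 10.1% of 31525.

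The libraries were made by CUT&Tag from cells of the lateral ganglionic eminence (LGE), taken at E14.5 from mouse embryos of the CD1 strain that were wild type. CUT&Tag uses an antibody to bring the Tn5 transposase to a protein on chromatin, so that the DNA around it is cut and tagged. There were 2 libraries with a mouse polyclonal antibody to MEIS2 and 1 library for which the labels give no antibody, each from 100000 cells. The labels do not say whether the MEIS2 libraries came from separate embryos or litters. Of 74259592 and 79760948 tags in the MEIS2 libraries, the peak caller kept 7618406 and 6559629 after its filter, which had a limit of 1 tag per position. Of 72763762 tags in the no-antibody library it kept 6337375. All pileups and fold enrichments here thus rest on a small part of the tags. Fold enrichment here is the caller's ratio of the pileup to the pileup expected from the surroundings, each plus 1. The pileup is how many extended tags cover the summit. No RNA was measured, so the tissue label could not be checked against marker genes.

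MEIS2 is a homeodomain protein of the TALE class. TALE proteins bind DNA alone or with PBX and HOX partners, and MEIS proteins prefer a short TGACAG core. In the LGE, the source of striatal projection neurons, MEIS2 is made in progenitors and in young neurons. Much of the binding of such factors in developing tissue lies away from promoters, at enhancers, which is why distal peaks are of interest. Peak lists give positions and strengths of signal and not the function of a site.

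Just 2 of the 3177 strong distal peaks overlapped an annotated promoter window, and these are the ones whose sequence is held in the tables used here. The windows run from 250 bases before to 50 bases after a RefSeq transcript start and include starts inside genes, which the distance to gene ends does not see. One lies in Rtn1, which encodes reticulon 1 of the endoplasmic reticulum, and the other in Slc24a3, which encodes a potassium-dependent sodium-calcium exchanger. The Rtn1 peak (chr12:72236471-72237008) had fold enrichments of 16.9 and 12.02 and pileups of 31 and 19 in replicates 1 and 2. Its summit lay 52 bases before the transcript start in replicate 1 and 12 bases after it in replicate 2. The Slc24a3 peak (chr2:145242209-145242711) had fold enrichments of 20.1 and 20.8 and pileups of 72 and 64, with summits 184 and 150 bases before the start. The 250 bases before each start are shown 5′ to 3′ on the strand of the gene, from RefSeq on GRCm38.p6, at chr12:72236728-72236977 (minus strand) and chr2:145242361-145242610 (plus strand). Capitals mark a run of 49 bases that stands at both edges of the 250 bases shown for Slc24a3. The longest repeat found in the bases shown for Rtn1 has 9 bases and is not marked.
Rtn1: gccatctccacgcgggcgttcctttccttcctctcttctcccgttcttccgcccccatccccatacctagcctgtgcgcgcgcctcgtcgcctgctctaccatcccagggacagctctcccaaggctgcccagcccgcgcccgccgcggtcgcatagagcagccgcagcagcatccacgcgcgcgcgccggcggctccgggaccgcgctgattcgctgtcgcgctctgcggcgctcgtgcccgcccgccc
Slc24a3: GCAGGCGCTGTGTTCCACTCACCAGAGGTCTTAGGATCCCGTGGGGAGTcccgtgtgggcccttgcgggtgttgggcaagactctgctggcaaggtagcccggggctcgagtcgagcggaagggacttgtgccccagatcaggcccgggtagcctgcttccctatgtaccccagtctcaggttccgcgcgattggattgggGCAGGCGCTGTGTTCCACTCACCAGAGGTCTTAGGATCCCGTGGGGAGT
Both stretches of 250 bases are rich in G and C, at 72.4% in Rtn1 and 63.6% in Slc24a3. The median over the same bases of 32851 promoter windows is 52.4%. The Rtn1 and Slc24a3 stretches hold 35 and 14 CG pairs, and the median is 6. Neither stretch contains TGACAG on either strand, a word found in these 250 bases of 15.9% of all windows. Neither contains TGATTGAC, the longer form joined with a PBX site, found in 0.691%. The 50 bases after each start were not searched. That says only that these letters are not in these bases. Among the weaker distal peaks, 1014 of 28348 (3.58%) overlapped a promoter window, against 0.0630% of the strong distal peaks (95% Wilson interval 0.0173 to 0.229) and 1 of 8459 distal no-antibody peaks.

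The strong distal peaks chosen by the rule had high pileups and were alike in both replicates. The median fold enrichment was 16.02 in replicate 1, with a highest value of 28.3, and 15.2 in replicate 2, with a highest value of 29.1. The median pileups were 46 and 40 tags, over expected pileups of 1.75 and 1.59. The weaker distal peaks had median fold enrichments of 6.76 and 6.09 and pileups of 15 and 11. Single weaker peaks were taller, with highest pileups of 207 and 205 against 134 and 130 in the strong distal peaks. These values are what the rule used and carry no test. Replicate 1 had the higher fold enrichment at 65.7% of the strong distal peaks and at 64.4% of the weaker ones, a similar share in both sets. Across the 3177 peaks the fold enrichments of the replicates had a Pearson correlation of 0.699 and a Spearman correlation of 0.667, a description over sites that share libraries and were cut at 12 on both axes.

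**Figure D1:**
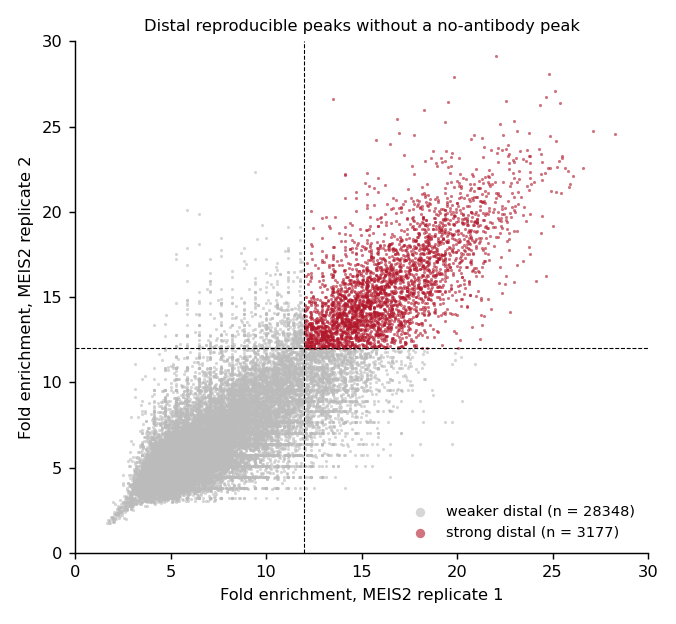
Fold enrichment of each distal reproducible peak without a no-antibody peak in MEIS2 replicate 1 (x axis) and replicate 2 (y axis), both as ratios; dashed lines mark the threshold of 12. The 3177 strong distal peaks (red) fill the upper right field and reach 28.3 and 29.1. The 28348 weaker peaks (grey) fall under 12 in at least 1 replicate, reach 20.9 in replicate 1 and 22.3 in replicate 2, and meet the strong ones without a gap.

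The 12 peaks at the top of the set reached 23.6 or more in both replicates, and all but 1 were narrower than the median of 499 bp. The first, chr8:39366906-39367301, lay in Gm6213, a gene not typed as protein-coding, with 65 and 66 tags at summits 3 bp apart. Inside Esr1, the gene of estrogen receptor alpha, a peak had 62 and 53 tags at summits 7 bp apart. Inside Alk, a receptor tyrosine kinase gene, a peak had 64 and 63 tags at summits 15 bp apart. Each of these had nearly the same stack of tags in both libraries. The peak inside Jak1, a kinase of cytokine receptors, had 61 and 58 tags, and the one inside Samd5 had 55 and 63. The 12th was a peak inside Stx8 (chr11:68006866-68007288), a SNARE protein gene, with fold enrichments of 23.7 and 23.6, 63 and 62 tags, summits 1 bp apart, and no no-antibody peak for 1055 kb. The 11th (chr8:116272376-116272660, fold enrichments 24.3 and 23.7, 53 and 43 tags) lay 232 kb from Dynlrb2, and the 10th (chr8:82218862-82219254, 23.8 and 24.7, 62 and 56 tags) 84.7 kb from Inpp4b. One of the 12 stood close to a no-antibody peak: chr8:60397909-60398577, with 100 and 92 tags, lay 4.81 kb from one. All 12 had summits at most 56 bp apart.

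The threshold of 12 cut through a continuous range. Of 5012 distal replicate 1 peaks at 12 or more without a no-antibody peak, 1816 (36.2%) overlapped a replicate 2 peak under 12, with a median of 9.91 there, and 19 (0.379%) had no replicate 2 peak. Of 3944 such replicate 2 peaks, 682 (17.3%) had a replicate 1 partner under 12, with a median of 10.4, and 82 (2.08%) had none. So most peaks left out for their strength in the other library were still called there. Of the replicate 1 peaks left out, 1816 were called in replicate 2 and 19 were not. Of the replicate 2 peaks left out, 682 were called in replicate 1 and 82 were not. The last peak inside the threshold, in Chchd6 (chr6:89533249-89534239), had fold enrichments of 12.0003 and 13.9 with 69 and 82 tags. One at the edge near Dbnl (chr11:5777565-5777897) had 20.1 and 12.001 with 47 and 18 tags, the most unequal of the last 5. Just outside were a peak near Nphp4 (chr4:152710976-152711323; 11.9985 and 12.6, with 24 and 23 tags) and one in Pcsk2 (chr2:143758336-143758850; 13.6 and 11.9913, with 36 and 31 tags).

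Summits of the strong distal peaks lay close together in the replicates. The distance between the replicate summits had a median of 17 bp (95% interval of the median 16 to 18), against 38 bp in the weaker distal peaks (37 to 38). It was at most 20 bp for 56.2% of strong and 33.2% of weaker peaks, and over 100 bp for 5.16% and 20.6%. Summit position was not part of the rule, but the strong distal peaks also had the higher median pileups. The part of pileup in this difference was not tested. The farthest pair of summits, 583 bp apart, lay in a peak 23.7 kb from Bmp5 (chr9:75923794-75924746), a bone morphogenetic protein gene, and the next, 436 bp apart, in Adam22 (chr5:8258781-8259487). The 5 peaks with the farthest summits were all over 700 bp wide and had lower fold enrichments between 12.1 and 14.1.

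Strong distal peaks were also broader, with median widths of 499 bp in replicate 1 and 478 bp in replicate 2, against 313 and 278 bp in the weaker distal peaks. Widths ran from 202 to 1317 bp. Width and pileup had a Spearman correlation of 0.667 across the strong distal peaks, while width and the lower fold enrichment had one of -0.0132. The widest (chr2:65795292-65796608, 62 and 49 tags) lay 28.95 kb from Scn2a, a neuronal sodium channel gene. The highest bin, at a lower fold enrichment of 20 or more, had a median width of 430 bp, against 516 bp between 14 and 16.

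Strong distal peaks lay farther from protein-coding genes than the weaker ones. Their distances were close to those of all distal no-antibody peaks, and longer than those of the few no-antibody peaks of like strength. Inside protein-coding genes lay 963 of 3177 (30.3%, 95% Wilson interval 28.7 to 31.9), against 45.7% of weaker distal peaks (45.1 to 46.3) and 27.5% of the 8459 distal no-antibody peaks (26.5 to 28.4). Between genes of any kind lay 62.2%, 47.2% and 64.9%. Inside noncoding genes alone lay 7.49%, 7.14% and 7.68%. Noncoding here means every annotated gene not typed as protein-coding, so any pseudogenes count too. The intervals cover counting error only, and peaks are not independent of each other. No test over samples was made, with 2 libraries against 1.

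The distance from the summit to the nearest protein-coding gene end had a median of 89.6 kb in the strong distal peaks (95% interval of the median 84.1 to 96.3), 28.4 kb in the weaker (27.6 to 29.2) and 84.1 kb in the no-antibody peaks (80.7 to 89.9). Over 100 kb from every such end lay 47.1% of strong, 26.4% of weaker and 46.7% of no-antibody peaks. Most no-antibody peaks were weak, with a median fold enrichment of 5.10, and only 64 distal ones reached 12. Those 64 had a median distance of 39.9 kb (27.6 to 61.7), with 25% over 100 kb from every end (16.01 to 36.8) and 32.8% inside protein-coding genes (22.6 to 45.0). In distance they thus stood nearer to the weaker MEIS2 peaks than to the strong ones, while their share inside genes had too wide an interval to place it. The strong distal peaks that were removed because they overlap a no-antibody peak, 1558 of them, had 27.7% inside protein-coding genes and a median distance of 99.9 kb. They were taller, with median pileups of 80 and 72 tags, and wider, at 687 bp. Each library alone, without the condition on the other, gave 31.1% (replicate 1) and 32.0% (replicate 2) inside protein-coding genes and medians of 78.9 and 83.9 kb.

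**Figure D2:**
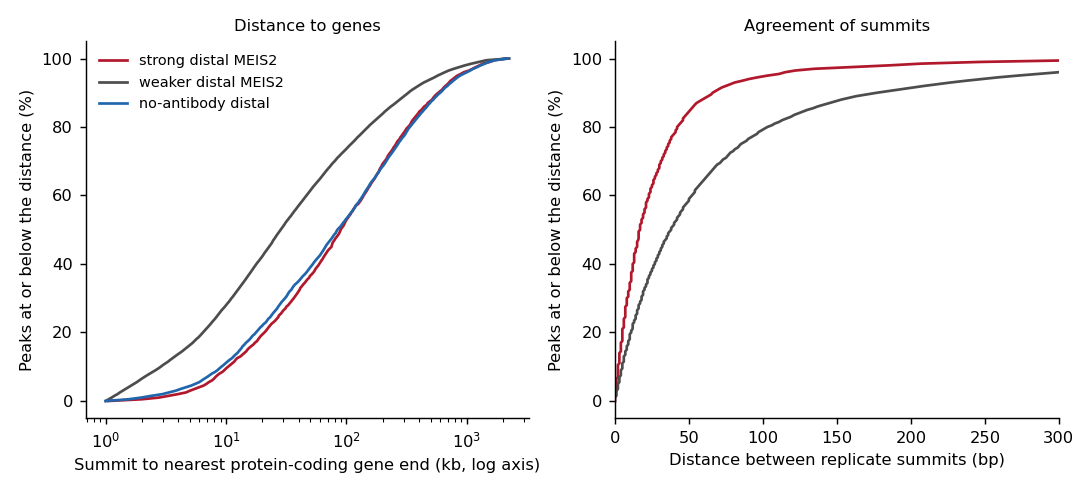
Left, share of peaks (y axis, %) whose summit lies at or below a given distance in kb (log axis) from the nearest protein-coding gene end; right, the same for the distance in bp between replicate summits, shown up to 300 bp. On the left the strong distal (red) and all distal no-antibody (blue) curves nearly coincide, with medians of 89.6 and 84.1 kb, and the weaker MEIS2 curve (grey) reaches its median at 28.4 kb; on the right the strong distal curve reaches its median at 17 bp and the weaker at 38 bp.

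Being clear of the control means here that no no-antibody peak was called on the same bases. The tags of the no-antibody library under the strong distal peaks were not analysed here, and a called peak in that library had at least 6 tags and a fold enrichment of at least 1.99. The nearest no-antibody peak lay a median of 76.5 kb away from a strong distal peak (71.9 to 82.0) and 119 kb away from a weaker one. Within 10 kb there was one at 15.7% of strong and 11.2% of weaker distal peaks, and within 100 kb at 58.2% and 45.1%. The excess of strong distal peaks within 10 kb arose in a narrow band of distances around 5 kb. The part of the caller's 10 kb window in this band was not tested. Within 1 kb the order was the other way, at 43 strong distal peaks (1.35%, 1.01 to 1.82) and 678 weaker ones (2.39%, 2.22 to 2.58). The order stayed that way from 1 kb up to the band around 5 kb. The closest lay in Zfp442, a zinc finger gene (chr2:150440594-150441445, 83 and 86 tags), 3 bp from a no-antibody peak. In a split chosen after the data were seen, among peaks over 100 kb from any no-antibody peak, 35.5% of 1329 strong and 54.4% of 15572 weaker distal peaks lay inside protein-coding genes, with medians of 68.8 and 20.5 kb to the nearest end. The part of control signal below the calling threshold was not tested.

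The shift in position with strength began below the threshold, and it was not even across the range of strength. Peaks shared by the MEIS2 replicates were grouped by the lower of their fold enrichments. Of those between 4 and 6, 3.37% overlapped a no-antibody peak. The share was 8.98% between 8 and 10, 18.6% between 10 and 12, 27.2% between 12 and 14, and 49.1% at 20 or more. Among the peaks without a control peak, the share within 1 kb of a gene end was highest between 6 and 8, at 39.2%, then 35.3% between 8 and 10, 15.6% between 10 and 12, and 4.49% between 12 and 14. The strongest shared peaks were thus the ones most often called without the antibody and among those least often found at gene ends. Among the distal clear peaks, the share inside protein-coding genes was 58.4% under 4, 37.9% between 8 and 10 and 28.4% between 18 and 20. At 20 or more it was 39.9%, from 65 of 163 peaks (32.7 to 47.5). The median distance of distal clear peaks to the nearest protein-coding gene end was 45.8 kb between 8 and 10 and 59.6 kb between 10 and 12. It was 88.2 kb between 12 and 14 and 88.3 kb at 20 or more.

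**Figure D3:**
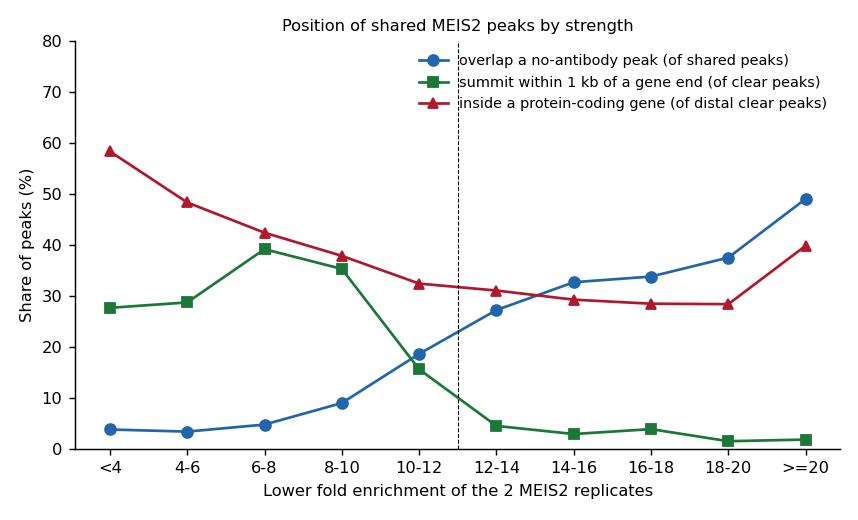
Share of peaks (y axis, %) by the lower fold enrichment of the 2 MEIS2 replicates (x axis, bins); the dashed line marks 12. With rising strength the share overlapping a no-antibody peak (blue, of all shared peaks) goes from 3.79% to 49.1%, the share at gene ends (green, of peaks without a control peak) from 27.7% to 1.81% after a maximum of 39.2%, and the share inside protein-coding genes (red, of distal peaks without a control peak) from 58.4% to 28.4%, with 39.9% in the last bin.

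Gene-end peaks were rare among strong peaks before the distance condition was applied. Of 4877 replicate 1 peaks at 12 or more in replicates 1 and 2, a no-antibody peak lay on 1585 (32.5%). Of the 3292 that did not, 115 (3.49%) had a summit within 1 kb of a gene end and were left out here. Among the reproducible clear peaks under 12 in either replicate the share was 31.5%. The condition on gene ends thus removed few strong peaks. Strong peaks at 12 or more were found in the no-antibody library too, but only 67 of its 8670 autosomal peaks (0.773%) reached that value, against 9.96% and 7.61% in the MEIS2 libraries.

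Strong distal peaks had fewer close neighbours than weaker ones, in part through the rule. Another reproducible peak lay within 10 kb of 15.9% of strong and 43.8% of weaker distal peaks, and within 50 kb of 67.3% and 85.3%. Within 5 kb the shares were 2.64% and 26.4%. The caller takes the expected pileup from a window of 10 kb, so a neighbour inside it can raise that value, and the share within 5 kb, which the wider shares contain, is tied to the rule. Among peaks with no neighbour within 5 kb, another lay within 10 kb of 13.6% of 3093 strong (12.5 to 14.9) and 23.6% of 20862 weaker distal peaks (23.0 to 24.2), and within 50 kb of 66.4% and 80.05%. Another strong distal peak lay within 50 kb of 14.3% of the strong distal peaks and of 10.2% of the weaker ones. The median distance to the next strong distal peak was 211 kb, and the closest pair stood 4.93 kb apart. The 10 kb window bears on close pairs of strong peaks in the same way.

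Chromosomes did not share the strong distal peaks in proportion to the weaker ones. Chromosome 3 held 256, or 8.06% of the strong against 5.41% of the weaker distal peaks, and chromosome 11 held 88, or 2.77% against 5.40%. The no-antibody distal peaks had 7.70% on chromosome 3 and 3.27% on chromosome 11. Chromosome 6 held 7.46% of strong and 5.69% of weaker peaks, and chromosome 19 1.73% and 2.47%, with no-antibody shares of 7.07% and 1.83%. On 16 of the 19 chromosomes the no-antibody share lay on the same side of the weaker share as the strong one. The exceptions were chromosomes 8, 10 and 15. Chromosome 8 had 5.82% of strong, 5.70% of weaker and 4.26% of no-antibody peaks, and chromosome 15 had 3.62%, 4.17% and 4.73%. The chromosomes' median lower fold enrichments ran only from 14.3 to 15.3.

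Inside genes, strong distal peaks were found mostly in long ones. The host genes of the 963 intragenic peaks had a median length of 270 kb per peak, against 85.3 kb for weaker and 238 kb for no-antibody distal peaks. For the 21 intragenic no-antibody peaks at 12 or more it was 98.7 kb (39.8 to 228). In protein-coding genes longer than 500 kb there were 1.55 strong distal peaks per Mb, and in genes of at most 10 kb 0.162 per Mb, from 5 peaks. Weaker distal peaks ran the other way, from 24.8 per Mb in the shortest genes to 7.56 in the longest. No-antibody distal peaks went from 0.616 to 3.72 per Mb. The rule itself leaves little room in short genes, since it removes 1 kb at each end, but this holds for all 3 sets. Gene length and distance from gene ends could not be told apart here.

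**Figure D4:**
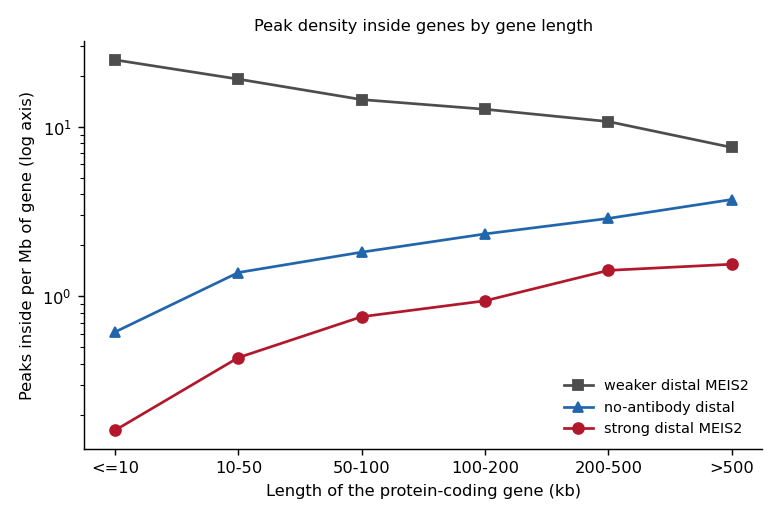
Peaks inside protein-coding genes per Mb of gene (y axis, log axis) by gene length in kb (x axis) for strong distal MEIS2 peaks (red), weaker distal MEIS2 peaks (grey) and distal no-antibody peaks (blue). Strong distal peaks go from 0.162 to 1.55 per Mb and no-antibody peaks from 0.616 to 3.72, while weaker peaks go from 24.8 down to 7.56.

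Of 20665 autosomal protein-coding genes, 756 held a strong distal peak inside, 153 held at least 2 and 54 at least 3 (0.261%). Cntnap2, a neurexin-family adhesion gene 2241 kb long, held the most, with 8, and the strongest of these (chr6:46577172-46577745) had 20.03 and 19.5 with 59 and 56 tags. Fhit, a hydrolase gene, held 7 in 1612 kb, Lsamp, which encodes a limbic adhesion protein, 6 in 2197 kb, and Naaladl2 6 in 1346 kb. All 4 are over 1 Mb long, and their densities lay between 2.73 and 4.46 per Mb. Cdh12, Pcdh15, Gpc5, Gpc6, Dpp10 and Agbl4 held 5 each, among them a cadherin, a protocadherin and a pair of glypicans, which are heparan sulfate proteins of the cell surface. Higher densities were found in shorter hosts with few peaks, such as Nubpl with 3 in 213 kb (14.1 per Mb), Elapor2 with 3 in 219 kb (13.7) and Adam22 with 4 in 296 kb (13.5). Rarb, a retinoic acid receptor gene of the developing striatum, held 4 in 651 kb. Among the 54 are 3 overlapping gene models of the protocadherin cluster on chromosome 18, Gm37013, Gm38666 and Gm38667, which share the same 3 peaks.

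To see which genes lie near the strong distal peaks, 19 gene lists were counted, each gene with a peak inside it or within 50 kb. Of all autosomal protein-coding genes, 2277 (11.0%) had one, so shares are read against that. Of the 402 listed genes on autosomes, 100 did. The lists of LGE and striatal neuron genes ranged from 0 to 16.7%. LGE regulators had 2 of 28 (7.14%), Foxp2 and Rarb. Foxp2, a forkhead gene of striatal neurons, held its strongest (chr6:14966324-14966907) with 18.5 and 15.7 and 54 and 42 tags, and Rarb (chr14:17025538-17026346) with 15.5 and 17.5 and 90 and 88 tags. At a threshold of 10 in place of 12, LGE regulators had 7 of 28 (25%, against 18.3% of all genes), so their place below the background rested on the threshold. Markers of D1 projection neurons had 0 of 13, which became 5 of 13 with a window of 100 kb (38.5%, against 18.1% of all genes). Markers of D2 projection neurons had 2 of 12: a peak 29.1 kb from Gpr6, an orphan receptor gene (17.3 and 16.3, with 44 and 36 tags), and one inside Ptprm, a receptor phosphatase gene (15.8 and 15.6, with 35 and 31 tags).

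Effector genes shared by spiny neurons had 2 of 16. A peak 44.5 kb from Pde10a, the striatal phosphodiesterase gene, had 19.4 and 23.0 with 39 and 60 tags. A peak 34.1 kb from Gad1, which makes GABA, had 14.8 and 12.1 with 29 and 18 tags. Progenitor and radial glia genes had 4 of 20, namely Slc1a3, a glutamate transporter gene (19.003 and 18.5), Ptprz1 (18.9 and 17.9), Tcf4 (15.3 and 15.7) and Id4 (12.7 and 12.7). The TALE homeobox genes, MEIS2's own class, had 2 of 18, Mkx (15.9 and 17.8) and Meis3 (12.2 and 12.6), and Meis2 was not among them. The Notch pathway had 1 of 23, inside Maml2, a coactivator gene (14.7 and 17.5), and all 23 had a weaker distal peak in the same window, as did 79.7% of all protein-coding genes. Neighbouring regions gave 2 of 15 genes of the medial ganglionic eminence and interneurons (Erbb4 and Nkx2-1) and 2 of 16 of dorsal cortical neurons (Tbr1 and Neurod6). Other cell types gave 2 of 15 for vessels and microglia (Tek and P2ry12) and 0 of 9 for the oligodendrocyte lineage. These lists are short, and some changed sides of the background with the setting. The D2 list had 16.7% against 18.1% with the window of 100 kb. With 50% reciprocal overlap of peaks, spiny neuron effectors and dorsal cortical neurons each had 12.5% and TALE genes 11.1%, against 12.7%. At a threshold of 10, TALE genes had 16.7% against 18.3%.

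Lists of long neuronal genes stood above the background by gene count, and less so per length. Synaptic adhesion genes had 24 of 42 (57.1%), led by Dlgap1, a postsynaptic scaffold gene (21.2 and 20.3, with 56 and 48 tags), Adgrb3, Lrp1b, Cntnap2 and Lsamp. Axon guidance genes had 13 of 32 (40.6%), led by Sema3d, a semaphorin gene (21.6 and 21.1, with 76 and 72 tags), Sema6a and Robo1. Cadherins and protocadherins had 11 of 31 (35.5%), led by Cdh12 (25.9 and 21.6, with 74 and 62 tags), Pcdh10 and Pcdh15. Their median gene lengths were 831, 219 and 153 kb, against 17.5 kb over all genes. Of all protein-coding genes over 500 kb, 61.6% held a strong distal peak inside the gene alone, of those of 200 to 500 kb 32.6%, and of those of 100 to 200 kb 12.1%, so the share over all genes is a low background for lists of long genes. Per Mb of window the lists held 1.33, 1.42 and 1.94 strong distal peaks, against 0.878 over all protein-coding genes, and 3.30, 2.85 and 3.89 no-antibody distal peaks against 2.43. Both kinds of peak were thus denser in these windows than over all genes, and the part of gene length and of the control signal in the list counts was not tested.

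Glutamate and GABA receptor genes had 12 of 35 (34.3%), led by Gabrb1, a GABA-A receptor subunit gene (21.3 and 18.4, with 55 and 53 tags), Grid1 and Gabrg1. Potassium channel genes had 9 of 29 (31.0%), led by Kcnh7, an ERG-type channel gene (22.4 and 24.5, with 78 and 79 tags), Kcnj3 and Kcnmb2. The receptor and channel lists each held 1.05 strong distal peaks per Mb, with 4.15 and 3.41 no-antibody peaks per Mb. Receptor tyrosine kinases and Jak genes had 6 of 27, with Alk and Jak1 first, and nuclear receptors 4 of 26, namely Esr1, Rarb, Rora and Esrrg. Genes of liver, muscle and pancreas had 5 of 18 (27.8%), which are Ttn, Ins1, Actn3, Ttr and Gcg, at 2.11 per Mb, the highest density of the 19 lists. That list of genes for other organs has a median length of 13.1 kb. Its share was above those of the LGE and striatal lists here, but not at every setting. With a window of 100 kb it had 6 of 18 (33.3%) and the D1 list 38.5%. For weaker distal peaks in the 50 kb windows, it had 13 of 18 genes (72.2%) and LGE regulators 26 of 28 (92.9%). Spiny neuron effectors had 87.5%, the D2 list 83.3%, the D1 list 69.2% and all protein-coding genes 79.7%. No difference between these short lists was tested. The Ttn peak, inside the giant muscle gene, had 19.4 and 21.4 with 64 tags in each replicate.

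**Figure D5:**
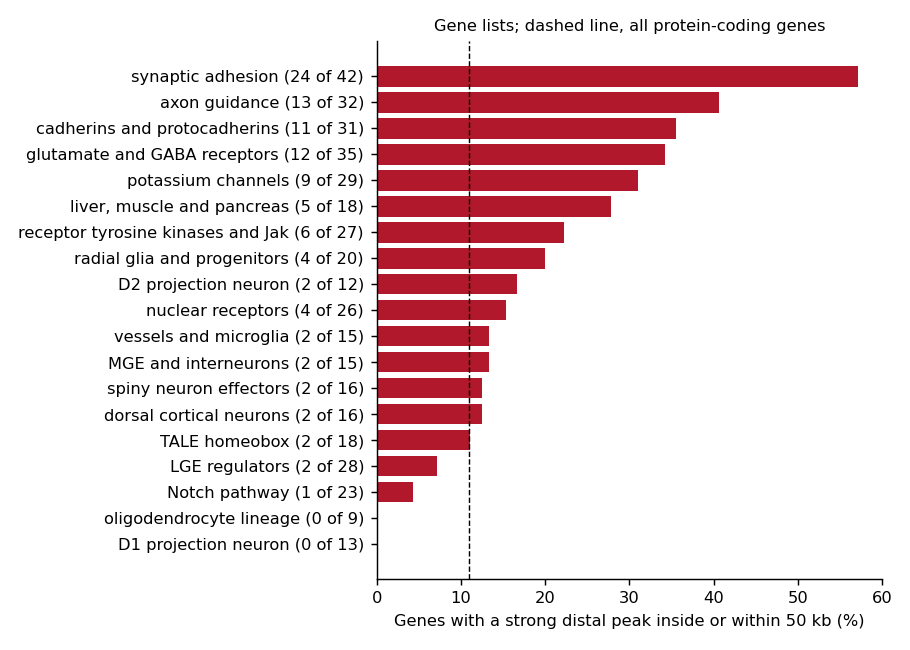
Share of the genes of each list (x axis, %) with a strong distal peak inside the gene or within 50 kb; the count stands beside each name and the dashed line marks all protein-coding genes, at 11.0%. Synaptic adhesion genes reach 57.1%, genes of liver, muscle and pancreas 27.8%, LGE regulators 7.14%, and the D1 neuron and oligodendrocyte lists 0.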

How the data were processed

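The authors deposited 1 list of peaks for each of the 3 libraries. MACS 2.2.7.1 called them library by library, with no control file and a q cutoff of 0.05, per the file headers, which also give a limit of 1 tag per position and a local background over 10000 bp. Other tools named, per the submitters' processing notes, are Bowtie2 2.3.4, Trimmomatic, Picard and MACS2 2.1.4, with the build mm10. Pileup as deposited is a signal in tags that was not adjusted for library size. Fold enrichment as deposited is the ratio of pileup to expected pileup, each plus 1. The deposited −log10 p-values and −log10 q-values are within a library. Expected pileups were computed back from the ratio.

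Gene positions came from RefSeq on GRCm38.p6, the assembly mm10 names (49943 placed genes, without strand), and promoter sequences from RefSeq on the same build. Where several replicate 2 peaks overlapped, the one of highest fold enrichment was used. Shares have 95% Wilson intervals and medians 95% order-statistic intervals. No test was made, since peaks are not replicates. The helpers for overlaps and distances were tested on simulated data. Peaks were named by rank of the lower fold enrichment, of width, of summit distance and of nearness to the control, and genes by rank within each list. Python 3.11.15, numpy 2.4.6, pandas 2.3.3 and scipy 1.17.1 were used. A genome sequence was not used here, so the planned motif results were not run. The regions, the lists and their cutoffs were chosen with earlier results of these data known.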

Additional observations from a re-analysis of the deposited data

How the results depend on the processing

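The number of strong distal peaks, 3177, became 5119 at a fold enrichment of 10 and 1435 at 15; leaving out a MEIS2 library gave 3944 to 5012, and the other settings 2895 to 3825. The share inside protein-coding genes was 31.1% to 32.0% with a library left out. The median distance to a protein-coding gene end was 77.6 kb at 10, 99.5 kb for peaks over 5 kb from gene ends, and 78.9 to 83.9 kb with a library left out. The median width was 480 bp at 10, 536 bp with 50% reciprocal overlap, and 449 to 458 bp with a library left out. Replicate summits were a median of 19 bp apart at 10 and 15 bp at 15. The share with a no-antibody peak within 10 kb was 30.2% with 50% reciprocal overlap, a setting that also lets in peaks overlapping a control peak by less, and 13.6% to 14.2% with a library left out. The share with another strong distal peak within 50 kb was 16.8% with that overlap, 20.2% at 10, 5.09% at 15, and 16.3% to 20.3% with a library left out. With settings added after the data were seen, no no-antibody peak within 10 kb or within 100 kb, it was 11.6% and 10.8%; the median distance was 83.8 and 68.8 kb; and with none within 100 kb the share inside protein-coding genes was 35.5% and the median width 479 bp. Protein-coding genes with a peak inside or within 50 kb numbered 3784 at 10 and 3731 with a window of 100 kb, in place of 2277. A setting at 10 or 15 holds more or fewer peaks by construction. Leaving out a library drops a condition, and a window of 100 kb contains that of 50 kb, so their higher counts also follow by construction. For the other shifts the cause was not tested. Of 19 list counts, 6 moved by over 1.5 times at 10 and 8 with the wider window. No paired analysis was possible because the control is 1 library and nothing was tested. Summit distance has no value with a library left out. The motif settings were not run. The control's depth limits which weak control peaks could be called.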
